A study of Mus musculus with 4 samples.

Results

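A set of 10 genes of the bone morphogenetic protein (BMP) pathway was followed in the embryonic mouse neuroretina: the ligand genes Bmp2 and Bmp7, the receptor genes Bmpr1a, Bmpr1b and Bmpr2, the signal transducer gene Smad9, the inhibitory Smad genes Smad6 and Smad7, and the antagonist genes Bambi and Smoc1. They were taken from a list of pathway genes by symbol. A platform annotation assigned 14 transcript clusters (the array's unit of measurement, a set of probes summarised to 1 value) to exactly 1 of these symbols, out of 25513 single-symbol clusters for 20252 genes. Smad9 had 4 clusters, Bmpr2 had 2 and the other 8 genes had 1 each.

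RNA came from neuroretina (the part of the optic cup that forms the neural retina), dissected from CD-1 mice at embryonic day 13.5. The 2 control arrays carried the genotype Lhx2 lox/lox, in which both copies of Lhx2 are flanked by loxP sites but intact, and the other 2 arrays carried Chx10-Cre;Lhx2 lox/lox, the same alleles with a Cre recombinase transgene under Chx10 regulatory sequence, which is active in retinal progenitors. The latter are called the labelled knockout arrays. Lhx2 encodes a LIM-homeodomain transcription factor of retinal progenitors, and the series title names the genes it regulates as the subject. Only the labelled knockout group carried Cre, so an effect of the transgene and loss of Lhx2 cannot be told apart, and the sources used here do not give the share of recombined cells. Nothing in the labels says whether replicates were separate embryos, litters or pools, so p-values measure the spread between these arrays only, which may be technical.

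BMP ligands bind a complex of type I and type II serine-threonine kinase receptors. The active type I receptor phosphorylates the receptor-regulated Smads (Smad1, Smad5 and Smad9, the last also called Smad8), which enter the nucleus with Smad4 and regulate genes such as those of the Id family. Smad6, Smad7 and the pseudoreceptor Bambi dampen the pathway and are themselves induced by it. In the mouse eye, BMP signalling is required for lens induction, for survival of the optic cup and for dorsal retinal identity, which is marked by T-box factors.

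Array level followed the replicate number. The median deposited log2 signal over the named clusters was 4.09 and 4.19 on the replicate 1 arrays (control, then labelled knockout) and 4.55 and 4.60 on the replicate 2 arrays. Each array was therefore centred on that median, and every value below is a centred log2 signal, with differences given as labelled knockout minus control. The choice of centre shifts all differences together: the median over all 25513 clusters was -0.14 here, -0.06 on deposited values and 0.04 with centring on all clusters of the array, so a difference is best read against -0.14. Lhx2 itself had a difference of -0.06 (95% interval -0.66 to 0.54), and its sign changed on deposited values (0.02). The sources used here do not give the exons its cluster covers, so it does not check the genotype labels. Of 10 neuroretina progenitor markers 9 were measured, and each lay above the 75th percentile of all clusters on at least 1 array.

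None of the 14 clusters passed the test. Limma called 0 of them at a Benjamini-Hochberg adjusted p of 0.05, against 30 of all 25513 clusters (0.118%), 14 higher (0.0549%) and 16 lower (0.0627%). At an unadjusted p under 0.05 there were 6 of the 14, where the share over all clusters was 10.8%. The lower ones, 5 of the 14 (7.54% of all clusters), were 3 clusters of Smad9 and the clusters of Bambi and Bmpr1b, and the 1 higher (3.26%) was that of Bmp7. Because 3 come from Smad9, the 6 stand for 4 genes. The count at this p depended on the scale. It was 3 of the 14 on deposited values (1448 of all 25513 clusters) and 3 with centring on all clusters of the array (2294). After quantile normalization it was 5 (2599), and with the replicate number as a block 7 (4826). The labelled knockout arrays lay wholly below the control arrays in 8 clusters (34.9% of all clusters did so) and wholly above in 1 (10.1%). On deposited values the counts were 8 below (9.94% of all clusters) and 2 above (9.17%). The median difference over the 14 clusters was -0.31, beside -0.14 over all clusters, and 12 of the 14 had the same sign in replicate 1 as in replicate 2 (69.9% of all clusters did).

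**Figure D1:**
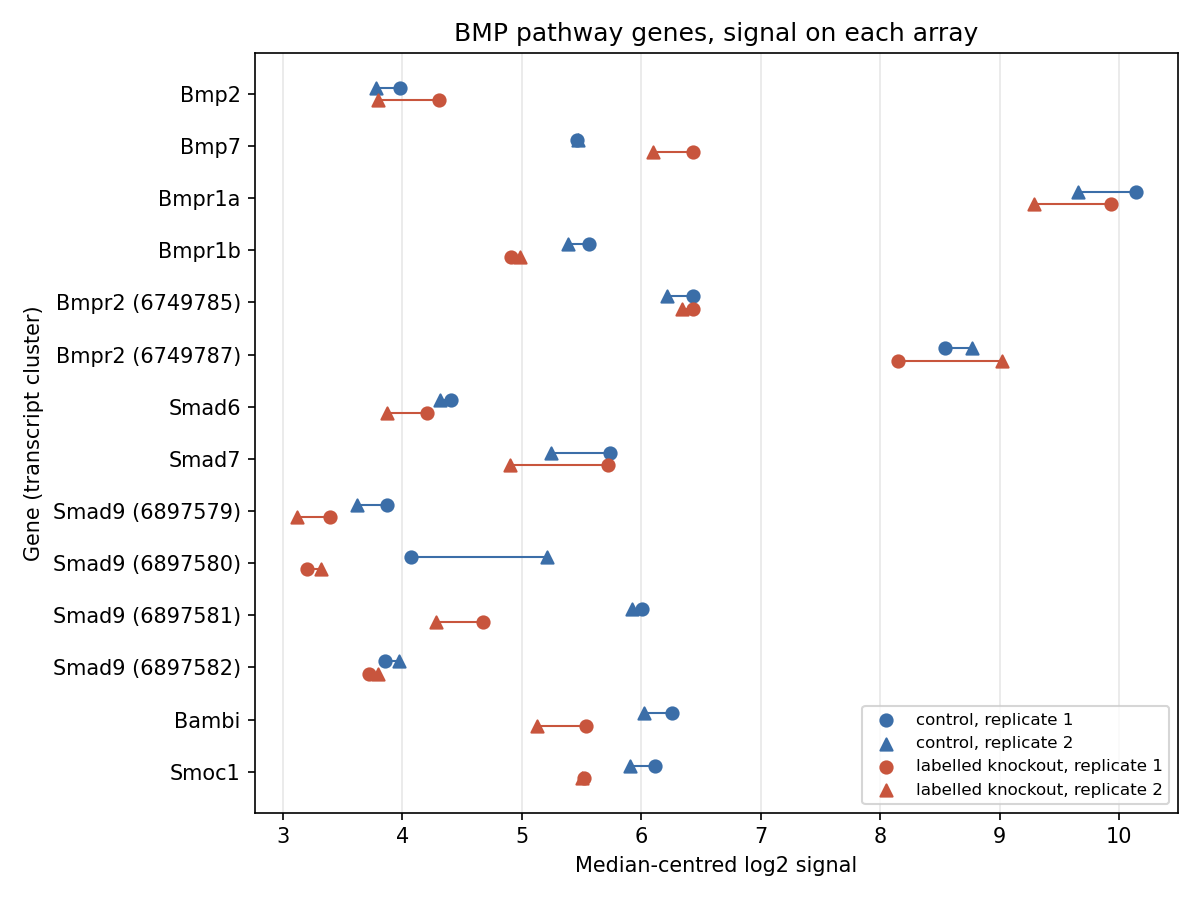
Median-centred log2 signal (horizontal axis) of the 14 transcript clusters of the 10 BMP genes on each of the 4 arrays; points are single arrays and lines join the 2 arrays of a genotype. The labelled knockout arrays lie below the control arrays in 8 clusters, among them all 4 of Smad9 (6897582 overlaps on deposited values), and above them in Bmp7. Horizontal positions of different clusters are not comparable with each other, since probes differ in brightness.

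Smad9, a receptor-regulated Smad that carries the BMP signal into the nucleus, had the largest differences among the 10 genes. Cluster 6897581 read 6.01 (replicate 1) and 5.92 (replicate 2) in control against 4.67 and 4.28 in the labelled knockout, an order of replicates kept below. Both control arrays lay above both labelled knockout arrays by over 1 log2 unit. The group means were 5.97 ± 0.06 (SD, n = 2) and 4.48 ± 0.28, a 2.80-fold lower signal and a log2 difference of -1.49 (SE 0.23, 95% interval -2.06 to -0.92, limma adjusted p = 0.118). Taken by replicate number the difference was -1.34 in replicate 1 and -1.64 in replicate 2, and measured from the median of all clusters it was -1.35. On deposited values this cluster passed (log2 difference -1.41, limma adjusted p = 0.0476, where 1.6% of all clusters passed). Those values keep the array level that followed the replicate number. An earlier account of these data reported that the adjusted p of that fit did not hold its error rate in simulation.

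The other 3 clusters of Smad9 differed from it in size. Cluster 6897580 read 4.07 and 5.21 in control against 3.20 and 3.32, so the control arrays disagreed with each other by more than 1 log2 unit while the labelled knockout arrays were close. Its difference was -1.38 (SE 0.38, adjusted p = 0.286), or -0.87 in replicate 1 and -1.89 in replicate 2. Without control replicate 1 it was -1.95 and passed (limma adjusted p = 0.0223), but there the lone control array is assumed to vary like the labelled knockout arrays (SD 0.09, against 0.81 in control), and without control replicate 2 it was -0.81. Cluster 6897579 read 3.87 and 3.62 against 3.40 and 3.12, a difference of -0.49 (SE 0.19, adjusted p = 0.450). Measured from the median of all clusters this was -0.35. Cluster 6897582 read 3.86 and 3.98 against 3.72 and 3.80, a difference of -0.16 that became 0.02 with centring on all clusters of the array, and its genotypes overlapped on deposited values. Clusters 6897579 and 6897582 lay below the 75th percentile of all clusters on each of the 4 arrays, and cluster 6897580 on 3 of them. No detection call was made, so signals this low may not be told from background. The size of the difference in each of these 3 clusters, small or large, is therefore uncertain. The sources used here do not say whether the clusters cover different exons, and the differences between clusters were not tested.

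The promoter of Smad9 is shown because this gene carried the largest difference, beside those of 2 receptor genes whose groups overlapped and whose promoters hold the same short element. Windows of 5 of the 10 genes (Smad9, Smad6, Bmpr1a, Bmpr1b and Bmpr2) were searched, 7 windows in all. The counts below therefore say nothing about the other members. Each sequence is the 250 bases before an annotated start (RefSeq, GRCm38.p6, written 5′ to 3′ in the direction of the gene), and capitals mark GGCGCC, a GC-rich element bound by BMP-regulated Smads.
Smad9, chr3:54755332-54755581, plus strand: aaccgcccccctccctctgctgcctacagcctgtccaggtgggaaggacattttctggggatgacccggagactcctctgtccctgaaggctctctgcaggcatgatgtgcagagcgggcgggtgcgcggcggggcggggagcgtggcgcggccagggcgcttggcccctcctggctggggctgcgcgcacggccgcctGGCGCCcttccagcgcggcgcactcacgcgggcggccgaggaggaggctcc
Bmpr1a, chr14:34502547-34502796, minus strand: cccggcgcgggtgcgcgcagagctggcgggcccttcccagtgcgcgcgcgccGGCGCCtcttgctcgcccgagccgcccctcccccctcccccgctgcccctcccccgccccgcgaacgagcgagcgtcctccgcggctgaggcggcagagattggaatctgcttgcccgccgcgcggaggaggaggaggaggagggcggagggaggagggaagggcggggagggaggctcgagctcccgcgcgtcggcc
Bmpr2, chr1:59764029-59764278, plus strand: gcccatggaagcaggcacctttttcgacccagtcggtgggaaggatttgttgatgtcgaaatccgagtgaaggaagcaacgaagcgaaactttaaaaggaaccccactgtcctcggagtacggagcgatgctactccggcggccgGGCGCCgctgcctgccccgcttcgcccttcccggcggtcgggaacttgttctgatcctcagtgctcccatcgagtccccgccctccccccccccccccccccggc
GGCGCC, which reads the same on both strands, began 51 bases before the start in Smad9, 198 in Bmpr1a and 105 in Bmpr2. Of 32851 such windows 9.59% hold it. G and C made up 73.2%, 78.8% and 64% of these 3 windows. The shares over all windows, here and below, were not matched for base content, so they do not measure enrichment or depletion. GGCGCC was not found in the windows of Smad6 or Bmpr1b. CAGAC, a short form of the Smad-binding element, was searched on both strands and found in 2 of the 3 windows of Bmpr1b and in none of the other 4, against 42.2% of all windows. TAATTA, the core bound by many homeodomain proteins, was in none of the 7, against 4.84% of all windows. No motif overlapped another in these windows, and a match or its absence describes these letters only. The element thus stood before a gene with large differences and before 2 genes whose groups overlapped.

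Smad6 and Smad7, the inhibitory Smads, showed smaller differences. Smad6, which blocks the BMP branch in particular, read 4.41 and 4.32 in control against 4.21 and 3.87. The labelled knockout arrays lay lower without overlap, but the difference of -0.32 (SE 0.21, 95% interval -0.84 to 0.20, limma adjusted p = 0.619) did not pass, and on 2 of the 4 arrays its signal was under the 75th percentile of all clusters. Smad7, which blocks both the BMP and the TGF-beta branch, read 5.74 and 5.24 against 5.73 and 4.90. Its 2 genotypes overlapped, differing by -0.01 in replicate 1 and by -0.34 in replicate 2. The mean difference of -0.18 (95% interval -1.04 to 0.68) became 0.24 without labelled knockout replicate 2 and 0.07 without control replicate 1. Both intervals include changes of 1.5-fold downwards.

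Among the receptor genes, Bmpr1b had the clearer separation of the genotypes, though it did not pass. Bmpr1b, a type I receptor of BMPs and growth differentiation factors, read 5.56 and 5.39 in control against 4.91 and 4.99. The labelled knockout arrays lay below without overlap, at 1.44-fold lower signal (log2 difference -0.52, SE 0.20, 95% interval -1.03 to -0.02, limma adjusted p = 0.448). By replicate number it differed by -0.65 and -0.40, and measured from the median of all clusters by -0.39. With centring on all clusters of the array the Bmpr1b difference was -0.35 (limma unadjusted p = 0.171). Bmpr1a, the more widely expressed type I receptor, read 10.14 and 9.66 against 9.93 and 9.28, and its groups overlapped. Its difference of -0.29 (95% interval -1.12 to 0.54) was -0.15 when measured from the median of all clusters, and 0.03 without labelled knockout replicate 2. On deposited values the Bmpr1a arrays did not overlap (labelled knockout below).

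Bmpr2, the type II receptor that pairs with both, showed no difference beyond its spread in either cluster. Cluster 6749785 read 6.43 and 6.22 against 6.43 and 6.35, a difference of 0.06 (95% interval -0.47 to 0.59). Cluster 6749787 read 8.54 and 8.77 against 8.15 and 9.02, so the labelled knockout arrays spanned the control arrays. It differed by -0.39 in replicate 1 and by 0.24 in replicate 2, and the mean of -0.07 (95% interval -0.93 to 0.79) turned positive on deposited values, after quantile normalization and with centring on all clusters. The intervals leave room for changes of about 1.5-fold in the first cluster and more in the second.

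Bmp7 had higher signal on each labelled knockout array but did not pass. This ligand, needed for eye and kidney development in the mouse, read 5.47 on both control arrays and 6.44 and 6.10 on the labelled knockout arrays. Both labelled knockout arrays lay above both controls, with all 4 signals over the 75th percentile of all clusters. The signal was 1.74-fold higher (5.47 ± 0.00 and 6.27 ± 0.24, SD, n = 2), a log2 difference of 0.80 (SE 0.22, 95% interval 0.25 to 1.35, limma adjusted p = 0.287). By replicate number the difference was 0.97 and 0.63, and measured from the median of all clusters it was 0.94. Bmp2, the other ligand listed, read 3.98 and 3.78 against 4.31 and 3.80, and lay below the 75th percentile of all clusters on 3 of the 4 arrays. Its 2 genotypes overlapped and the difference of 0.17 (95% interval -0.42 to 0.77) rested on labelled knockout replicate 1, being -0.08 without that array. On deposited values the labelled knockout arrays of Bmp2 lay above the controls without overlap.

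Both antagonist genes had lower signal on each labelled knockout array, and neither passed. Bambi, a transmembrane pseudoreceptor that lacks the kinase domain and is induced by BMP signalling, read 6.26 and 6.03 in control against 5.54 and 5.12. Every labelled knockout signal lay under every control signal. It was 1.75-fold lower (log2 difference -0.81, SE 0.24, 95% interval -1.42 to -0.21, limma adjusted p = 0.325), with differences of -0.72 and -0.90 by replicate number. Smoc1, a secreted calcium-binding protein that antagonises BMP signalling in Xenopus and whose human gene is mutated in a syndrome with anophthalmia, read 6.11 and 5.91 against 5.52 and 5.51. The labelled knockout arrays were close together and below both controls, 1.41-fold lower (log2 difference -0.50, SE 0.21, 95% interval -1.01 to 0.02, limma adjusted p = 0.477). Differences by replicate number were -0.59 and -0.40, and measured from the median of all clusters the Smoc1 difference was -0.36.

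**Figure D2:**
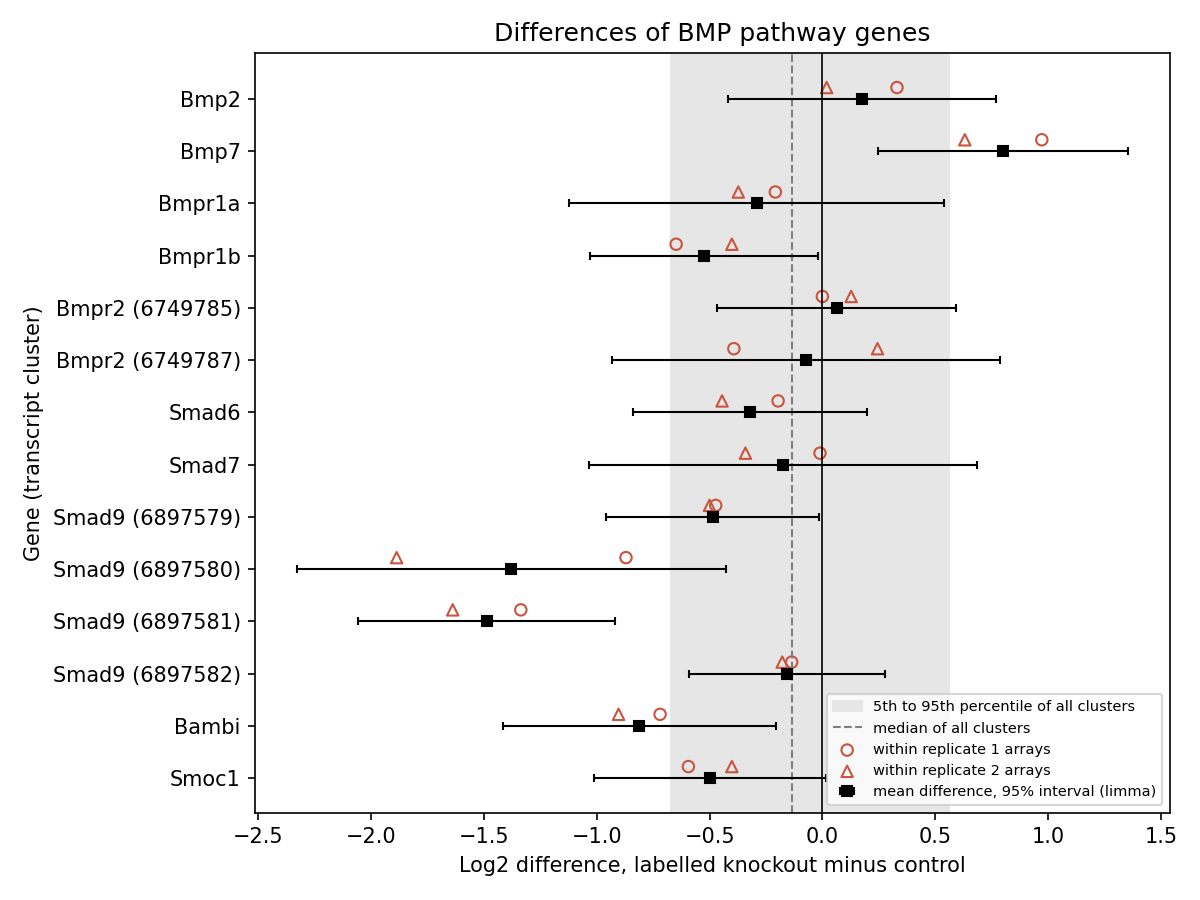
Log2 difference, labelled knockout minus control, for the 14 clusters; squares are means with 95% intervals from limma, open circles and triangles are the differences by replicate number, the grey band spans the 5th to the 95th percentile of all clusters (-0.67 to 0.56) and the dashed line is their median. Smad9 clusters 6897580 and 6897581, Bambi and Bmp7 lie outside the band.

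Among other genes of the pathway, 65 clusters of 63 genes were measured in 5 lists by role. Limma called 1 of the 65, lower (0.0627% of all clusters were called lower), and 21 of the 65 had an unadjusted p under 0.05 (10.8% of all clusters). That call was Tbx3, a T-box repressor of dorsal retina that BMP signalling induces, which fell from 7.18 ± 0.25 (SD, n = 2) to 4.20 ± 0.32 (log2 difference -2.98, limma adjusted p = 0.0429). Limma's adjusted p for Tbx3 ranged from 2.13e-10 on deposited values to 0.161 with centring on all clusters of the array. Of the alternatives with all 4 arrays, the call was kept on deposited values, with 1 cluster per gene and with a robust variance prior. It was lost in the others.

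Transcriptional targets of BMP signalling had a median difference of -1.38, or -1.20 and -1.34 by replicate number, beside -0.14 over all clusters. Of the 11 target genes, the labelled knockout arrays lay below the control arrays in 10 and above in 1, against 34.9% and 10.1% of all clusters. On deposited values they did so in 6 and 1, against 9.94% and 9.17%. The list was chosen with earlier results of these data known, so these shares are not a test of it. Beside Tbx3, the differences were -1.77 for Tbx2 and -1.53 for Tbx5, which mark dorsal retina, -1.69 for the helix-loop-helix factor Atoh8, -1.48 for Hey1, a repressor also induced by Notch, and -1.38 for Id1, an inhibitor of basic helix-loop-helix factors. None of these 5 passed (adjusted p from 0.0997 to 0.223). Smaller differences were found for Id2 (-0.39), Id3 (-0.33), Msx1 (-0.42) and Msx2 (-0.44), and the groups of each overlapped on deposited values. Msx2 lay below the 75th percentile of all clusters on each array. Id4 alone was higher, by 0.79 (adjusted p = 0.458). Bambi, Smad6 and Smad7, which are also targets, had differences of -0.81, -0.32 and -0.18. Measured from the median of all clusters these were -0.67, -0.18 and -0.04, and the groups of Smad7 overlapped. Smad9, one of the transducers, had differences from -0.16 to -1.49 over its 4 clusters.

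Of 14 ligand clusters, 0 passed. The labelled knockout arrays lay wholly above the control arrays in 5 (10.1% of all clusters) and wholly below in 6 (34.9%), and on deposited values in 5 (9.17%) and 1 (9.94%). Gdf6, a dorsal retinal BMP ligand, read 5.33 and 5.26 in control against 3.56 and 3.03, which is -1.86 measured from the median of all clusters (limma adjusted p = 0.0798). Gdf10, also called Bmp3b, read 3.73 and 4.03 against 5.26 and 5.85 (log2 difference 1.67, adjusted p = 0.133). Bmp4, the main dorsal ligand of the retina, was higher by 1.53, with 2.04 and 1.01 by replicate number (adjusted p = 0.166), and 1 of the 2 clusters of Bmp5 was higher by 1.16. In these 4 ligand clusters the dimmer group (labelled knockout for Gdf6, control for Gdf10, Bmp4 and Bmp5) lay below the 75th percentile of all clusters on both its arrays, so the size of each difference is uncertain. Bmp7 was higher, as were Bmp4 and this cluster of Bmp5, both named after their values were seen. The other Bmp5 cluster differed by 0.16. Over the 14 ligand clusters the median difference was 0.02, beside -0.14 over all clusters.

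In 9 clusters of receptors and co-receptors other than the 3 described, the labelled knockout arrays lay wholly higher in 5 (10.1% of all clusters). They lay wholly lower in 0 (34.9%), and on deposited values higher in 7 (9.17%) and lower in 0 (9.94%). The 5 include both clusters of Rgma. Rgma, a repulsive guidance molecule that acts as a BMP co-receptor, was 3.26-fold higher in its cluster 6961627 (4.68 and 4.27 against 6.21 and 6.14, adjusted p = 0.0955), and Rgmb was 2.37-fold higher (adjusted p = 0.170). In the intracellular list 0 of 10 clusters passed, and the partners of Smad9 showed differences of -0.07 for Smad1, 0.03 for Smad5 and -0.28 for Smad4. The difference between Smad9 and Smad1 or Smad5 was not tested. Smad2 (-0.52) and Skil (-0.54) had the smallest p of that list (adjusted p = 0.457 and 0.519).

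Of 21 extracellular modulator clusters, 0 passed, and their median difference was 0.17. The labelled knockout arrays lay wholly above the control arrays in 4 (10.1% of all clusters) and wholly below in 6 (34.9%). On deposited values the counts were 8 above (9.17%) and 2 below (9.94%). Chrdl1, a secreted BMP antagonist known as ventroptin in the chick retina, was 3.19-fold lower, reading 6.51 and 6.47 against 4.88 and 4.76 (adjusted p = 0.0793). Nog, which encodes the antagonist noggin, was higher by 0.57 (adjusted p = 0.251) at signals below the 75th percentile of all clusters on each array.

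**Figure D3:**
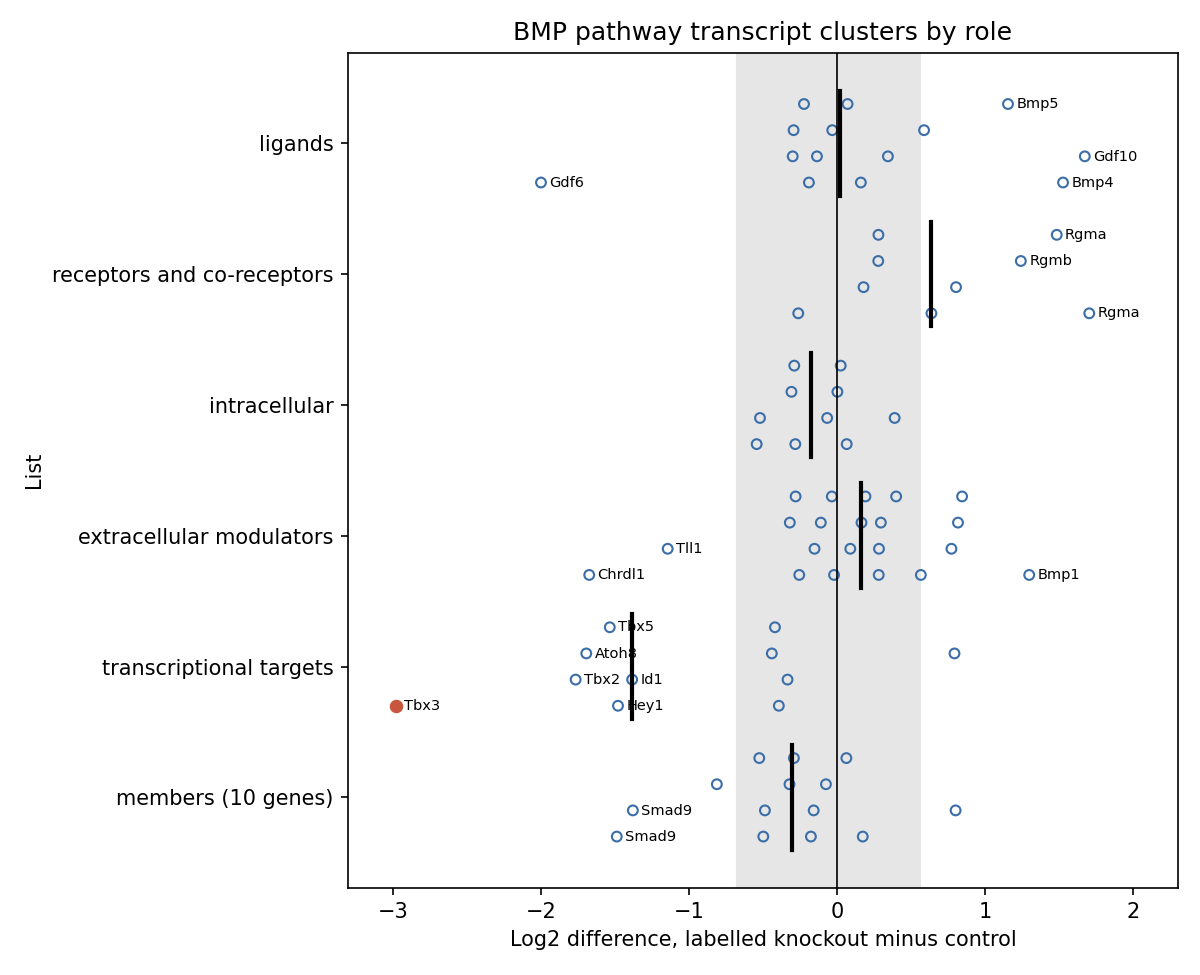
Log2 difference of the 65 other pathway clusters in 5 lists and of the 14 clusters of the 10 genes described; each circle is a cluster, the filled circle passed limma's adjusted p of 0.05, black bars are list medians and the grey band spans the 5th to the 95th percentile of all clusters. Targets lie to the left (median -1.38), receptors and co-receptors to the right (median 0.64), and clusters beyond 1.1 log2 units are named.

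Marker lists of other cells had higher or lower signal in the labelled knockout arrays, given here as values with medians and sums over the brightest cluster of each gene. In whole tissue, fewer cells of a type and less RNA per cell cannot be told apart. Neuroretina progenitor markers lay wholly below control in 10 of 13 clusters (34.9% of all clusters), the other 3 being clusters of Pax6, with median differences of -1.36 and -1.69 by replicate number. Their summed log2 signal was 12.6 on both control arrays and 10.9 and 10.98 on the labelled knockout arrays. Periocular mesenchyme markers lay wholly above control in 10 of 13 clusters (10.1% of all clusters), with medians of 2.85 and 0.89 and summed log2 signals of 8.03 and 7.96 in control against 11.7 and 8.99. Retinal pigment epithelium markers lay wholly above in 11 of 15 clusters (also against 10.1%), with medians of 1.91 and 0.29 and sums of 7.80 and 8.76 against 10.4 and 9.16. Both of these lists were highest in labelled knockout replicate 1. Endothelial medians were 1.38 and 0.50, and ciliary margin medians were 0.22 and -0.50.

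The BMP genes can be set beside these lists by replicate number. Bmp7 differed by 0.97 and 0.63, with its larger value in replicate 1, as for the mesenchyme and pigment epithelium lists. Medians of the endothelial (1.38 and 0.50), muscle (1.24 and -0.11) and lens and surface ectoderm (0.47 and 0.10) lists were also higher in replicate 1. This order was thus shared by several lists, and the part of any list in the Bmp7 difference was not tested. Smad9 (cluster 6897581: -1.34 and -1.64) and Bambi (-0.72 and -0.90) had their larger values in replicate 2. The median of the progenitor list had the same order but its summed signal did not, and the part of that list was likewise not tested. Bmpr1b (-0.65 and -0.40) and Smoc1 (-0.59 and -0.40) had theirs in replicate 1. With 1 array for each genotype and number, these orders have no error.

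**Figure D4:**
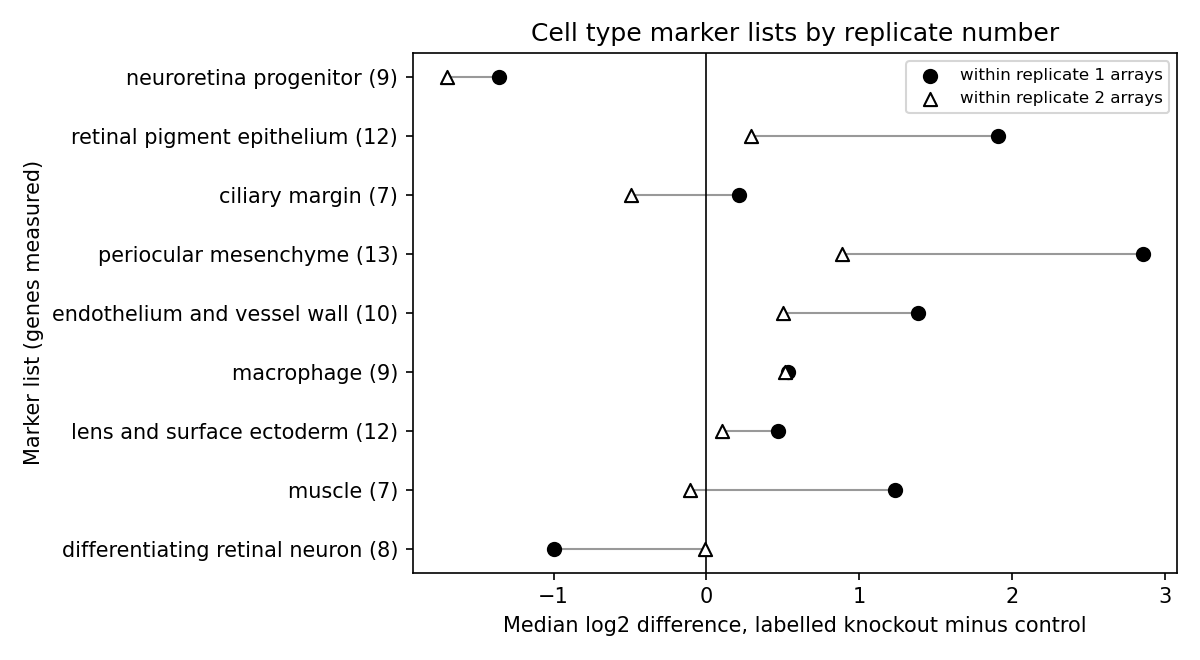
Median log2 difference, labelled knockout minus control, of 9 lists of cell type markers within the replicate 1 arrays (filled circles) and within the replicate 2 arrays (open triangles), with the number of genes measured in brackets. Mesenchyme and pigment epithelium lists differ more in replicate 1 (2.85 and 1.91) than in replicate 2 (0.89 and 0.29), and the progenitor list is low in both.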

How the data were processed

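Total RNA was extracted with a QIAGEN kit, reduced of ribosomal RNA and hybridised as biotin-labelled sense target to Affymetrix arrays, per the labels' protocols. The authors deposited 1 log2 signal for each transcript cluster and array. The submitters' processing notes name RMA, Partek and mm9, with no version, parameter or order given in the sources used here. Groups and replicate numbers came from sample titles.

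Of 112205 clusters, 25513 had 1 symbol in the platform annotation and were tested; 2290 with several symbols and 84402 unnamed here were not. Each array was centred on its median over the tested clusters. Limma 3.58.1 in R 4.3.3 (lmFit, eBayes with an intensity trend) was run with genotype as the only term, two-sided, with Benjamini-Hochberg adjustment over 25513 clusters. Intervals are 95% intervals from limma's moderated SE. An earlier account of these data, fitted on deposited values, reported that the adjusted p did not hold its error rate in simulation. Centring was chosen because array medians followed the replicate number. The fit was also run on simulated data, with noise drawn separately for each array. The simulation left out the joint deviation of same-numbered arrays, so it cannot show that the adjusted p holds its error rate here. No dim clusters were left out.

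The members, lists, tests and alternatives were chosen with earlier results of these data known. Named genes are the members, Lhx2, and per list up to 4 passing genes, or the 2 of smallest p. Bmp4, Bmp5, Tbx2, Tbx5, Atoh8, Hey1, Id1, Id2, Id3, Id4, Msx1, Msx2, Smad1, Smad4 and Smad5 were named after their values were seen. Alternatives covered array scale, clusters tested, a filter on dim clusters, the variance prior, replicate number and each array left out. Promoter windows came from RefSeq (GRCm38.p6), and cluster positions were not used here. Windows of Smad7 and Bambi were left out of the search, and none was available for Bmp2, Bmp7 or Smoc1. The number of arrays limits precision.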

Additional observations from a re-analysis of the deposited data

How the results depend on the processing

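Over 12 alternatives, 24 named clusters gave 277 values: 242 kept direction and side of the threshold, 14 newly passed, 5 (all of Tbx3) no longer passed and 16 changed sign; the causes were not tested. Bmp7, Bambi, Bmpr1b, Smoc1, Smad6 and 3 of 4 Smad9 clusters kept their direction in every alternative run. With each array left out in turn, signs changed within -0.082 to 0.43 for Bmp2, -0.61 to 0.031 for Bmpr1a, -0.045 to 0.17 for Bmpr2 6749785, -0.51 to 0.36 for Bmpr2 6749787, -0.59 to 0.24 for Smad7 and -0.22 to 0.10 for Lhx2. Signs also changed on deposited values for Bmpr2 6749787 (0.0018) and Lhx2 (0.016), after quantile normalization for the same clusters (0.025 and 0.051), and with centring on all clusters for them (0.099 and 0.11) and Smad9 6897582 (0.016).

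The count of all clusters called, 30 as reported, was 407 on deposited values, 0 after quantile normalization (2599 at an unadjusted p under 0.05), 0 with centring on all clusters (2294), 84 with 1 cluster per gene, 1 with dim clusters left out and 5 without an intensity trend. Leaving out 1 array gave 85 to 286. Among the 14 BMP clusters, 1 was called on deposited values and 0 to 1 with an array left out, the call coming without control replicate 1 (a lone array is taken to vary like the other group); the other alternatives called 0. Among the 65 other pathway clusters, 1 as reported, the counts were 11 on deposited values, 3 with 1 cluster per gene, 2 to 3 with an array left out, and 0 after quantile normalization, with centring on all clusters, with dim clusters left out and without an intensity trend.

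With the replicate number as a block, 0 of all clusters (4826 at an unadjusted p under 0.05), 0 of the 14 (7) and 0 of the 65 (22) were called. Same-numbered arrays deviated together (r = 0.482 across clusters), but 2 pairs do not show that the numbers pair the samples.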
